A study of Mus musculus with 18 samples.

Results

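The 10 genes described here encode secreted trophic and angiogenic factors, which neurons, vessels and the retinal pigment epithelium (RPE) use to signal to each other. They were chosen by name, as *Vegfa*, *Serpinf1*, *Fgf2*, *Lif*, *Cntf*, *Bdnf*, *Igf1*, *Pdgfa*, *Angptl4* and *Bmp4*, from 47729 genes in the count table, and all 10 passed the filter on low counts that left 18958 genes for testing. The labels give RPE RNA of 9 mice at postnatal day 40 (P40), all of them *rd1*, which the methods describe as FVB/N. In *rd1* mice a *Pde6b* mutation kills the rods early. The study's methods count fewer pairs of eyes for *rd1* mice at this age, and describe a further comparison at the same age in CD1 mice, an outbred strain. The pairs of both comparisons together are as many as the pairs labelled *rd1* here. Whether some of the 9 pairs are from CD1 mice could not be determined, so all were used as labelled, and this doubt bears on every value that follows. Per mouse, 1 eye received AAV-Best1-Nrf2 together with AAV-Best1-GFP (the treated, or Best1-Nrf2, group, n = 9), and the other eye received AAV-Best1-GFP alone (control group, n = 9). The vector carried the human Nrf2 cDNA behind a human Best1 promoter, which is active in the RPE. Per the labels all eyes carried the *rd1* mutation, and all received a GFP vector. Best1-Nrf2 eyes received more vector in all, so that the transgene and the added virus cannot be told apart. The eyes were compared to find the genes that Nrf2, a transcription factor of the antioxidant response, changes in the RPE of eyes labelled *rd1*.

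In the eye, the RPE is a source of such signals in both directions. It releases VEGF (*Vegfa*) towards the choroidal vessels, which need it to persist, and pigment epithelium-derived factor (*Serpinf1*), which restrains vessel growth and supports photoreceptors. LIF, CNTF, BDNF and FGF2 are known to slow the death of photoreceptors when supplied from outside, and LIF is made by glia after retinal injury.

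Library totals ranged from 18956748 to 49598700 counts and did not differ between the groups beyond their spread (p = 0.148 in an exact permutation test, 2-sided, that flipped the eyes of each mouse), with more counts in the treated eye of 5 of 9 mice. *Nfe2l2*, the mouse gene for Nrf2, was at 89.7 ± 17.8 CPM (read counts relative to the scaled size of a library) in control eyes and reached 453 ± 147 CPM with treatment (SD, n = 9 each), higher in 9 of 9 mice, although reads of the human cDNA that matched the mouse gene could not be separated from it. RPE markers were detected in every library, with 15 of them summing to 18200 to 106000 CPM in control and 24800 to 97400 CPM in treated eyes. *Ttr* and *Cst3*, secreted proteins that other tissues make too, held 62.5% of the mean sum in control and 80.3% in treated eyes, and the 13 other markers summed to 6230 to 26800 CPM and 5780 to 12000 CPM. Genes are called here when the adjusted p was under 0.05 over all 18958 genes, in the quasi-likelihood test of edgeR with mouse as a block. *Nfe2l2* and 5 classic Nrf2 targets were all called higher, with *Srxn1* (log2 fold change, 5.56), *Hmox1* (4.50) and *Txnrd1* (4.08) changed most. Of the RPE markers, 4 were called lower (*Rpe65*, *Lrat*, *Rgr* and *Rdh5*), and *Rpe65*, the isomerase of the visual cycle, fell from 2021 ± 846 to 296.8 ± 177 CPM (SD, n = 9 each, log2 fold change, -2.81, adjusted p = 0.000209). The marker *Best1* went the other way, higher in 9 of 9 mice (log2 fold change, 0.97, edgeR adjusted p = 0.0575). DESeq2 and limma voom called it higher. Of 9 cone markers, 8 were called lower, and their summed level was 292 to 2230 CPM in control and 52.8 to 529 CPM in treated eyes. The treated eye of mouse 6 stood apart with the highest cone sum, where the next was at 129 CPM, and the control eye of mouse 8 had the lowest RPE sum, with the next at 26000 CPM. *Angptl4* and *Bmp4*, described next, were called without either mouse (without mouse 6, log2 fold changes of -1.69 and -1.10, and without mouse 8, -1.83 and -1.11). Of 14 macrophage and microglia markers, 8 were called higher (sum, 143 to 492 CPM in control and 158 to 639 CPM with Best1-Nrf2). *Csf1r*, the most abundant of them in controls, was at 135.7 ± 122 CPM in control and 59.6 ± 33.9 CPM in treated eyes (SD, n = 9 each) and was not called by edgeR (adjusted p = 0.111), but was called lower by DESeq2. None of 10 endothelial, 7 Schwann cell and 5 red blood cell markers was called by edgeR, DESeq2 or limma voom, or had an unadjusted p under 0.05 in edgeR. Of 10 rod markers, 1 was called higher (*Rom1*) and 3 lower (*Sag*, *Gngt1* and *Prph2*). There was 1 call each among 9 fibroblast (*Col3a1*, higher), 8 pericyte (*Kcnj8*, lower) and 10 inner retina markers (*Nefm*, higher). Of 6 Müller glia markers, none was called by edgeR or voom, 1 by DESeq2, and 1 had an unadjusted p under 0.05, while their sum, 701 to 1640 CPM in control and 1050 to 1710 CPM with Best1-Nrf2, was higher in 9 of 9 mice. Most of that sum was *Dkk3* (mean, 697 CPM in control and 852 CPM in treated eyes) and *Glul* (385 and 531 CPM), each higher in 7 of 9 mice and not called. *Kcnj10*, *Gpr37* and *Slc1a3* had negative estimates (log2 fold changes of -1.96, -1.18 and -0.20), and the median of the 6 was -0.08. The retina had been removed before RNA was collected, and the source of these markers was not tested. The libraries were sequenced in 2 runs, and as the labels do not say which was in which, the part of the run in any result was not tested.

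Of the 10 factors, 2 fell in Best1-Nrf2 eyes and none rose past the threshold in edgeR, whereas DESeq2 and limma voom each called 1 higher, *Lif*. The genes that fell were *Angptl4* and *Bmp4*. Over all genes tested, 4.26% were called, 1.13% lower and 3.12% higher. An unadjusted p under 0.05 was found for 4 of the 10 factors, the other two being *Lif* and *Bdnf*, against 12.9% of all genes. The median log2 fold change of the factors was -0.06, beside -0.03 over all genes. The CPM ranges of the groups overlapped for all 10 factors, and were apart for 1.17% of all genes. In a bulk sample such as this, fewer cells of a type and less RNA per cell cannot be told apart.

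**Figure D1:**
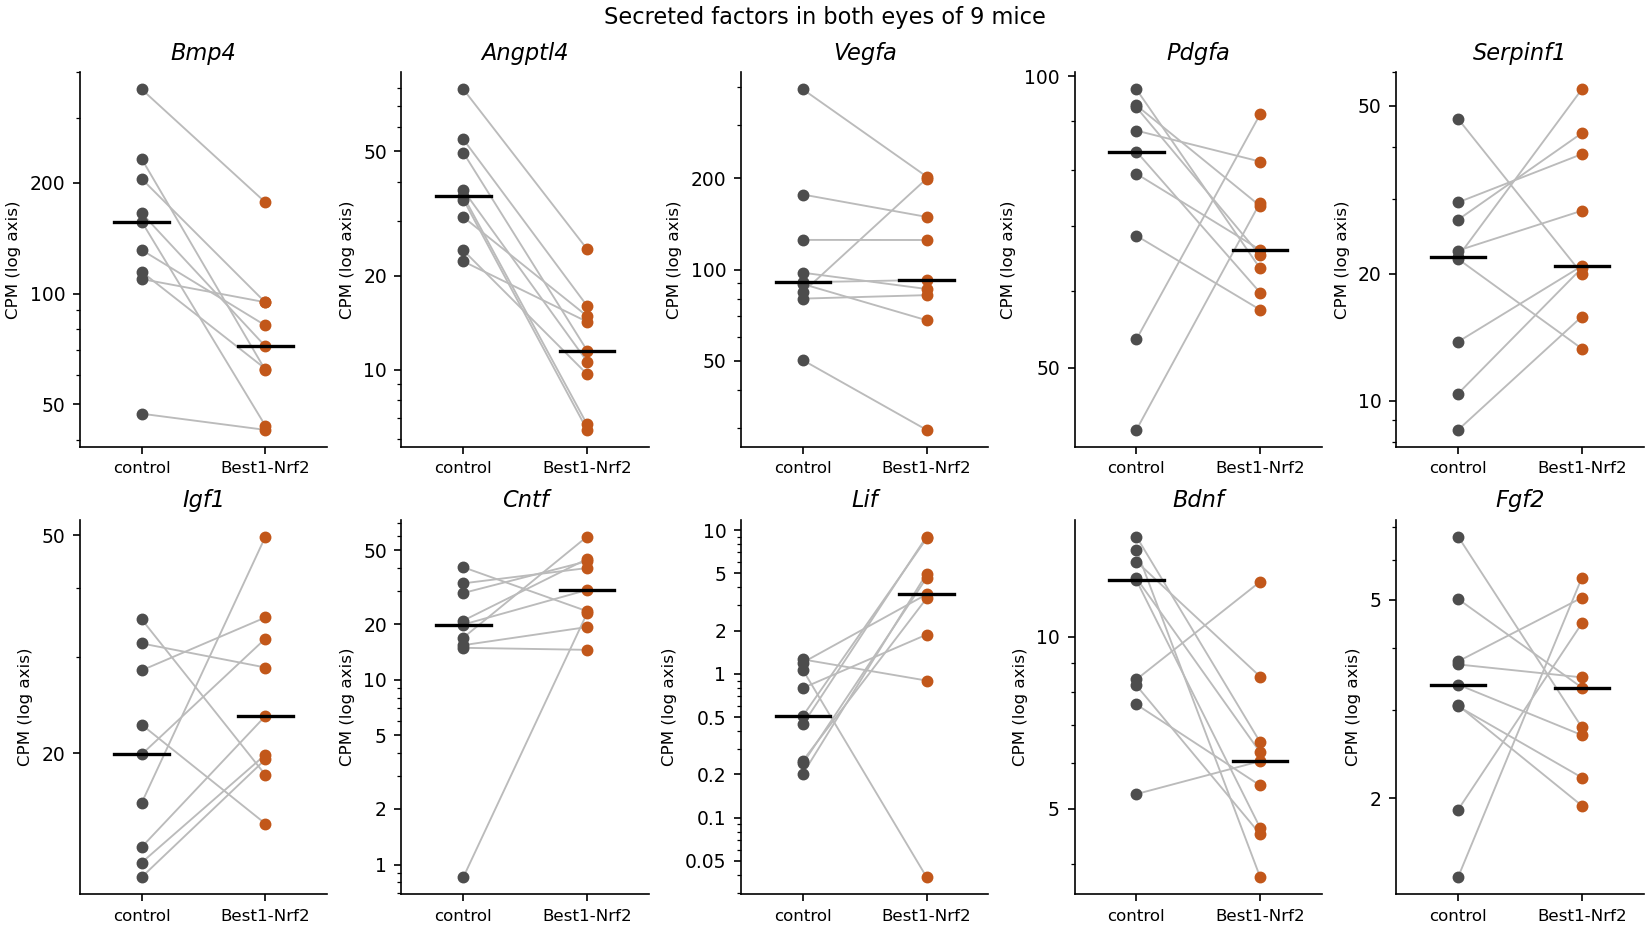
CPM (log axes, each with its own range) of the 10 secreted factors in the control and the Best1-Nrf2 eye of 9 mice. Points are libraries, grey lines join the eyes of a mouse and black bars are medians; *Angptl4* and *Bmp4* are lower with Best1-Nrf2 in all 9 mice, and *Lif* is higher in 7 of 9.

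*Angptl4* (chromosome 17, 33773750 to 33781830, minus strand, GRCm38) encodes angiopoietin-like 4, an inhibitor of lipoprotein lipase that also acts on vessel permeability. Its lowest, median and highest levels were 22.2, 35.96 and 79.1 CPM in control and 6.42, 11.5 and 24.3 CPM in treated eyes. Only the highest Best1-Nrf2 library, of mouse 9, reached into the control range, and its own fellow eye was the highest control. *Angptl4* fell 3.25-fold (log2 fold change, -1.70 ± 0.21 SE, n = 9, adjusted p = 0.000441) and was lower in 9 of 9 mice, by -0.64 in mouse 8 to -2.44 in mouse 7 on the log2 scale. A fall in all 9 mice was seen for 1.22% of all genes. The call held without each mouse in turn. It was lost when the mean level of rod and cone markers was added to the model (log2 fold change, -1.52, adjusted p = 0.144) or that of macrophage markers (-1.98, adjusted p = 0.134), in fits that called only 34 and 53 genes in all. The fit with rod and cone markers also lost the calls of *Nfe2l2* and *Txnrd1*, and both fits those of *Hmox1* and *Nqo1*. *Gclm* and *Srxn1* stayed called in both. As most cone and most macrophage markers were called between the groups, covariate and treatment cannot be fully told apart in such fits.

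*Bmp4* (chromosome 14, 46383520 to 46390669, minus strand, GRCm38) encodes a ligand of the bone morphogenetic protein family, which patterns the eye and is made by the mature RPE. In control eyes the lowest, median and highest levels of *Bmp4* were 47.1, 156.9 and 359.7 CPM, and in treated eyes 42.5, 71.8 and 177 CPM. The groups overlapped broadly, with the lowest control in mouse 8, the mouse with the smallest control library. Within mice, *Bmp4* was lower in 9 of 9, by -0.15 in mouse 8, -0.21 in mouse 6 and up to -1.91 in mouse 2 on the log2 scale. The log2 fold change was -1.002 ± 0.21 (SE, n = 9, adjusted p = 0.0148). This call did not hold without mouse 1 (adjusted p = 0.0508), without mouse 3 (adjusted p = 0.0534) or without the replicate block (log2 fold change, -1.06, adjusted p = 0.0919). With the rod and cone markers in the model the estimate was -0.22 (adjusted p = 0.806), and with the macrophage markers -1.27 (adjusted p = 0.632).

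The genes whose levels followed *Bmp4* most closely over the 18 libraries, after the group means were removed, were *Ermn* (Pearson's r = 0.93), the transporter *Slc6a13* (r = 0.92) and *Rdh5* (r = 0.91), a dehydrogenase of the visual cycle. These are descriptions without a test, among 11787 genes compared, over libraries that share their mice and their cell content. *Slc6a13* fell with Best1-Nrf2 (log2 fold change, -1.77, adjusted p = 0.000654), as did *Rdh5* (-1.04, adjusted p = 0.0309) and *Ermn* (-0.96, adjusted p = 0.0202). For *Angptl4* the closest genes were much less alike, with *Zfp809* the first at r = 0.74.

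**Figure D2:**
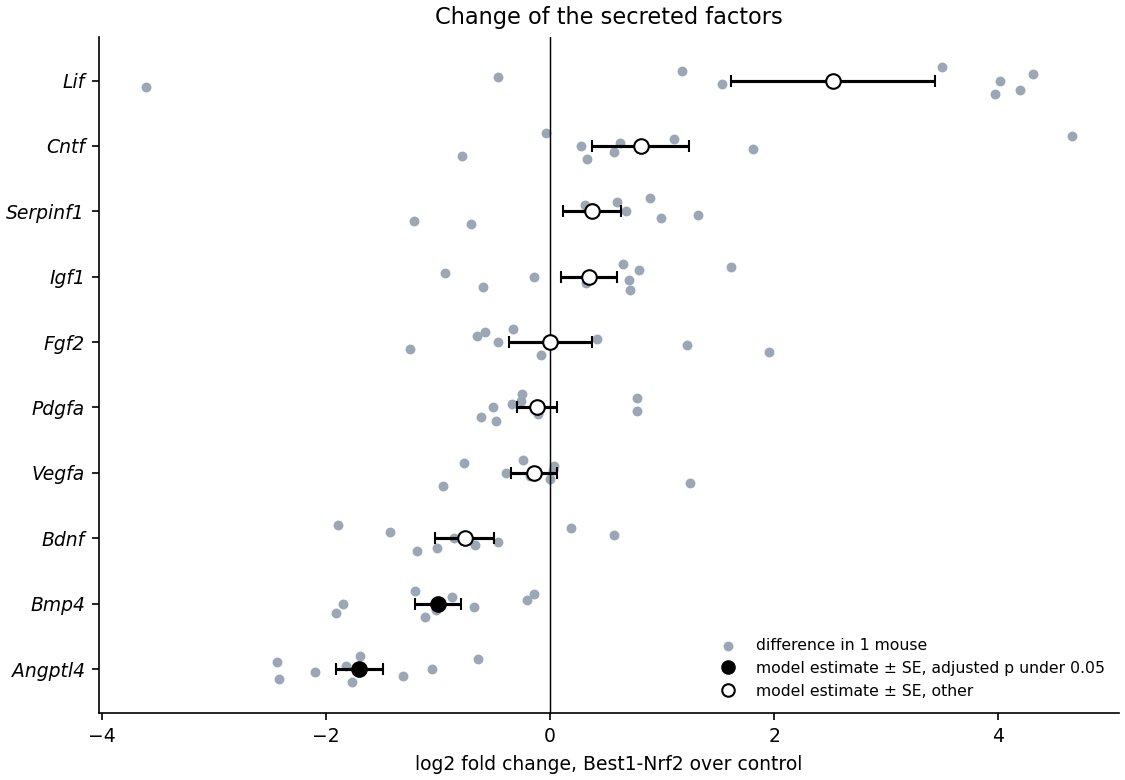
Log2 fold change of the 10 secreted factors, Best1-Nrf2 over control. Grey points are the differences within 9 mice and circles are model estimates ± SE, filled where the adjusted p was under 0.05; only *Angptl4* (-1.70) and *Bmp4* (-1.002) are filled, and the points of *Lif* spread furthest.

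Nrf2 binds, with a small Maf protein, to the antioxidant response element, whose core is TGACNNNGC on either strand. To show which factors have these letters near their start, the RefSeq promoters (GRCm38.p6, 250 bases before to 50 after a start site) were searched. Promoters were matched for 9 of the 10 factors (17 promoters in all), and *Angptl4* was not among them. The core was found in 3 of these 17 promoters, 1 each of *Fgf2*, *Lif* and *Pdgfa*, and in 12.4% of 32851 promoters of all genes. The matches are printed on the strand of the gene with the core in capitals (its reverse complement, GCNNNGTCA, where the match is on the other strand). Those of *Gclm*, a classic Nrf2 target, and of *Adm*, chosen with its rise known, are given for comparison. The promoters of other genes that rose are not shown.
Fgf2 (chr3:37348500-37348526, plus strand, core from -144): actttaggaGCTGCGTCAccgcagtct
Fgf2 (chr3:37348638-37348664, plus strand, core from -6): gacgcggggTGACGCGGCcccgggccg
Lif (chr11:4257318-4257344, plus strand, core from -241): ctaggcgcgGCCCAGTCAgctgtgact
Pdgfa (chr5:138994348-138994374, minus strand, core from -84): tgtgtaaacTGACCGTGCtctgggagg
Gclm (chr3:122245414-122245440, plus strand, core from -134): ctcccgggcGCACCGTCAactctcacg
Adm (chr7:110627590-110627616, plus strand, core from -58): gggcaaatcTGACCACGCccaccgtcc
Of the 3 factors with a match, none was called by edgeR, and *Lif* was called higher by DESeq2 and limma voom. The core was not in the promoter of *Bmp4*, the factor that fell and had a promoter in the table. The 250 bases upstream of the *Bmp4* start hold an E-box, CACGTG, which contains the hypoxia response core ACGTG on both strands and is marked in capitals.
Bmp4 (chr14:46390670-46390919, minus strand, E-box from -188): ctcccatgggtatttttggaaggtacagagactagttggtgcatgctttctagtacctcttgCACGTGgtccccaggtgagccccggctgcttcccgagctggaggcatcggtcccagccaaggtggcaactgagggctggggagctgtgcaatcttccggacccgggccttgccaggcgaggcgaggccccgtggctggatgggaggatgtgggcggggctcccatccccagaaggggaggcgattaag
The E-box was found in 7.15% and ACGTG in 19.6% of all promoters. Among the factors, ACGTG was in 5 of the 17 promoters, of *Bmp4*, *Vegfa*, *Serpinf1* and *Bdnf*, and of these edgeR called *Bmp4* alone, with *Bdnf* also called lower by limma voom. The other form of the hypoxia core, GCGTG on either strand, was in 32.4% of all promoters and in 8 of the 17, of *Vegfa*, *Fgf2*, *Lif*, *Cntf*, *Bdnf*, *Igf1* and *Pdgfa*, and not in that of *Bmp4*. A match says only that these letters are in the window.

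*Lif* (leukemia inhibitory factor, chromosome 11) had the largest estimate of the 10 and did not pass the threshold. Its lowest, median and highest levels were 0.202, 0.510 and 1.26 CPM in control eyes, from 6 to 55 counts, and 0.0386, 3.58 and 9.04 CPM in Best1-Nrf2 eyes, from 1 to 504 counts. It was higher with Best1-Nrf2 in 7 of 9 mice, in 5 of them by 3.50 to 4.31 on the log2 scale, and 7 Best1-Nrf2 libraries lay above the highest control. The exceptions were mouse 3, with 30 counts in the control and 1 in the Best1-Nrf2 eye, and mouse 6, with 55 and 31. The log2 fold change was 2.52 ± 0.91 (SE, n = 9, adjusted p = 0.210). Without mouse 3 it was 3.04 (adjusted p = 0.0286). *Lif* was also called without the replicate block (2.64, adjusted p = 0.0178), by DESeq2 (2.56, adjusted p = 0.00158) and by limma voom (3.02, adjusted p = 0.0176). With the rod and cone markers in the model, where *Nfe2l2* itself lost its call, the estimate was -0.0037 (adjusted p = 0.999).

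*Cntf* (ciliary neurotrophic factor, chromosome 19) uses the same signalling chains as LIF. For *Cntf*, the lowest, median and highest levels were 0.855, 19.9 and 40.6 CPM in control and 14.5, 30.6 and 59.5 CPM in treated eyes. The control library of mouse 8 stood apart with 15 counts, while the other controls and all Best1-Nrf2 libraries overlapped. The log2 fold change was 0.81 ± 0.43 (SE, n = 9, adjusted p = 0.494), higher in 7 of 9 mice, and 0.49 without mouse 8 (adjusted p = 0.509). Of the annotated exon bases of *Cntf*, 78.9% also belong to *Zfp91* on the same strand, so the counts of *Cntf* are uncertain. *Zfp91* was at 61.1 ± 20.96 CPM in control and 62.1 ± 22.5 CPM in treated eyes (SD, n = 9 each, log2 fold change, 0.01).

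*Bdnf* (brain-derived neurotrophic factor, chromosome 2) was the third factor with a negative estimate beyond its error. Its lowest, median and highest levels were 5.30, 12.6 and 15 CPM in control and 3.79, 6.05 and 12.5 CPM in treated eyes. The eyes of mice 6 and 8 went the other way, and 7 of 9 mice were lower with Best1-Nrf2. The log2 fold change was -0.76 ± 0.26 (SE, n = 9), which did not pass over all genes (adjusted p = 0.182). It did without mouse 6 (-0.93, adjusted p = 0.0466) and by limma voom (-1.05, adjusted p = 0.00761). With the rod and cone markers in the model the sign turned (0.59, adjusted p = 0.440). The genes most like *Bdnf* over the 18 libraries were *Car10* (r = 0.90), *Negr1* (r = 0.88) and *Nxnl1* (r = 0.87), which encodes the rod-derived cone viability factor and fell with Best1-Nrf2 (log2 fold change, -3.26, adjusted p = 0.000394). *Gm45346*, antisense to *Bdnf*, covers 14.4% of its exon bases, and without strand their reads cannot be told apart.

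*Vegfa* (chromosome 17, 46016993 to 46032369, minus strand) was not called. Its lowest, median and highest levels were 50.2, 90.8 and 394.5 CPM in control and 29.5, 92.4 and 203 CPM in treated eyes. The highest value of each group was in mouse 1 and the lowest in mouse 8, and the groups overlapped over most of their range. The log2 fold change was -0.14 ± 0.21 (SE, n = 9, adjusted p = 0.878), higher in 3 of 9 mice, and 0.01 without mouse 1 (adjusted p = 0.993). *Sox10*, a transcription factor of Schwann cells and melanocytes, followed *Vegfa* with r = 0.99 over the 18 libraries after group means were removed (Spearman's rho = 0.97; r = 0.99 without the 2 libraries farthest from the median of *Vegfa*). *Rhobtb2* and *Myrip* were next (r = 0.97 for each).

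*Serpinf1* (chromosome 11, 75409769 to 75422701, minus strand) had a small positive estimate. The libraries had a lowest, median and highest *Serpinf1* level of 8.52, 21.9 and 46.5 CPM in control and 13.3, 20.9 and 54.7 CPM in treated eyes. It was higher in 7 of 9 mice and lower in mice 1 and 2, and the groups overlapped almost wholly (log2 fold change, 0.38 ± 0.26 SE, n = 9, adjusted p = 0.643). The closest genes to *Serpinf1* were *Lum* and *Dcn* (r = 0.91 for each), proteoglycans of the fibroblasts of sclera and choroid. The 9 fibroblast markers, which hold both, summed to 253 to 799 CPM in control and 524 to 1090 CPM in treated eyes, and their part in the level of *Serpinf1* was not tested.

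As VEGF and pigment epithelium-derived factor have opposed effects on vessels, *Vegfa* was also set against *Serpinf1* within each library. The log2 CPM of *Vegfa* minus that of *Serpinf1* was 2.46 ± 1.25 in control and 1.97 ± 1.32 in Best1-Nrf2 eyes (SD, n = 9 each). Within mice it changed by -0.50 ± 1.21 (SD, n = 9). It was lower with Best1-Nrf2 in 8 of 9 mice and higher, by 2.46, in mouse 2. Without mouse 2 the mean change was -0.87. As the pair was chosen with the results of both genes known, no test is given.

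**Figure D3:**
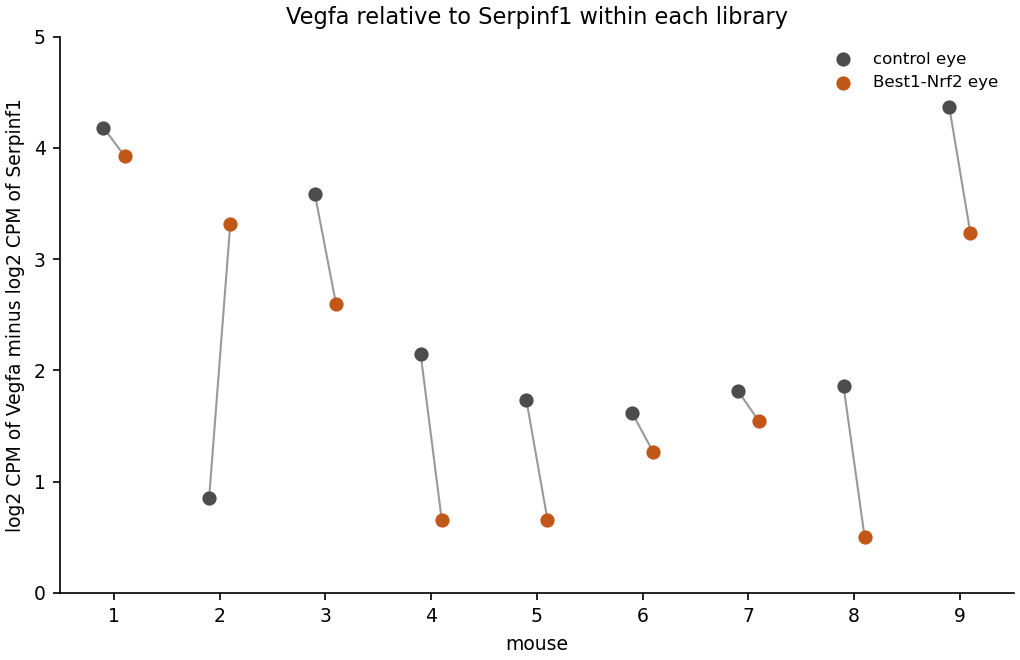
Difference in log2 CPM between *Vegfa* and *Serpinf1* in each library (y axis, log2 units) by mouse (x axis), with the control eye in grey and the Best1-Nrf2 eye in orange. Lines join the eyes of a mouse; the difference is smaller with Best1-Nrf2 in 8 of 9 mice, and mouse 2 is the exception.

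*Fgf2*, *Igf1* and *Pdgfa* encode growth factors of broad action, and none of them was called. *Fgf2* (chromosome 3) ranged from 1.39 to 6.69 CPM in control, with a median of 3.38, and from 1.93 to 5.53 CPM in Best1-Nrf2 eyes, with a median of 3.33. Its log2 fold change was 0.00 ± 0.37 (SE, n = 9, adjusted p = 0.999), higher in 3 of 9 mice, with a sign that turned between alternatives. *Nudt6*, antisense to *Fgf2* over 9.4% of its exon bases, was at 5.02 CPM in control and 6.35 CPM in treated eyes.

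*Igf1* (insulin-like growth factor 1, chromosome 10) ranged from 11.9 to 35.1 CPM in control, with a median of 19.9, and from 14.9 to 49.7 CPM in Best1-Nrf2 eyes, with a median of 23.4. The groups overlapped over most of their range, and *Igf1* was higher with Best1-Nrf2 in 6 of 9 mice (log2 fold change, 0.35 ± 0.25 SE, n = 9, adjusted p = 0.668). *Ctsl*, a lysosomal protease, was the gene most like *Igf1* (r = 0.81). *Pdgfa* (platelet-derived growth factor A, chromosome 5) ranged from 43.2 to 97.0 CPM in control, with a median of 83.6, and from 57.4 to 91.4 CPM in Best1-Nrf2 eyes, with a median of 66.2. It was lower in 7 of 9 mice, and higher in mice 4 and 8, whose control libraries were the lowest (log2 fold change, -0.12 ± 0.18 SE, n = 9, adjusted p = 0.891). *6330403L08Rik*, antisense to *Pdgfa*, covers 26.1% of its exon bases and was at 5.39 ± 2.22 CPM in control and 5.21 ± 2.60 CPM in treated eyes (SD, n = 9 each).

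Levels can be compared between genes per length of exon, and in CPM per kilobase of merged exons *Bmp4* led in both groups. In control eyes it was at 75.2 ± 39.99 CPM per kilobase (SD, n = 9), above *Vegfa* (30.8 ± 24.4) in 8 of 9 libraries. *Vegfa*, *Pdgfa* (24.9 ± 6.05) and *Cntf* (19.9 ± 10.9) overlapped, with *Vegfa* above *Pdgfa* in 4 of 9 libraries, and *Angptl4* (11.6 ± 5.02) and *Serpinf1* (9.51 ± 4.89) came next and were not separated by their spread. *Igf1* (2.15 ± 0.876) and *Bdnf* (1.74 ± 0.558) overlapped, while *Fgf2* (0.524 ± 0.233) was above *Lif* (0.153 ± 0.0984) in 9 of 9 libraries. In Best1-Nrf2 eyes *Bmp4* was at 36.1 ± 18.1 CPM per kilobase and exceeded *Cntf* (30.96 ± 13.7) in 5 of 9 libraries only. As most exon bases of *Cntf* also belong to *Zfp91*, its place in the order is uncertain in both groups. *Angptl4* (3.59 ± 1.56) now stood below *Serpinf1* (12.01 ± 5.96) in 8 of 9 libraries, where it had stood above it in 6 of 9 controls. *Lif* (0.95 ± 0.726) exceeded *Fgf2* (0.516 ± 0.187) in 6 of 9.

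**Figure D4:**
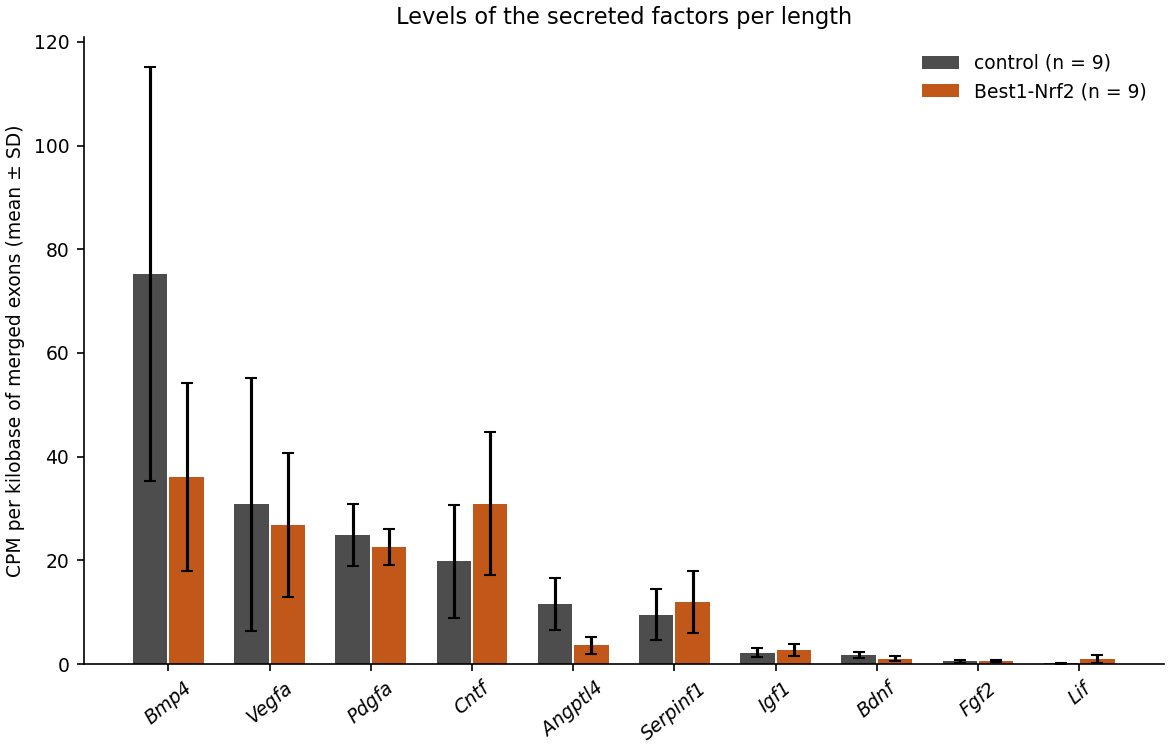
Level of the 10 secreted factors in CPM per kilobase of merged exons (y axis, linear, from 0), as the mean ± SD of 9 control (grey) and 9 Best1-Nrf2 (orange) libraries, in the order of the control means. *Bmp4* is the highest in both groups (75.2 and 36.1), and *Lif* and *Fgf2* are below 1.

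Other ligands of the same families were described from a list of 44, of which 39 were tested, and 4 rose while 1 fell (6 and 1 by DESeq2 and by limma voom). *Angpt1*, the angiopoietin that steadies vessels, rose from 3.45 ± 1.22 to 16.8 ± 4.52 CPM (SD, n = 9 each, log2 fold change, 2.35 ± 0.25, adjusted p = 0.000152), with no overlap between the groups. *Fgf1*, a relative of *Fgf2*, rose from 4.32 ± 2.70 to 11.8 ± 4.02 CPM (1.59 ± 0.23, adjusted p = 0.00138), and *Angptl7*, a relative of *Angptl4*, from 5.97 ± 2.16 to 17.5 ± 6.63 CPM (1.56 ± 0.18, adjusted p = 0.000353). Named after their values were seen, the others were *Igf2* (1.02, adjusted p = 0.0122), higher in 9 of 9 mice, and *Fgf7* (-1.40, adjusted p = 0.0203), lower in 9 of 9, whose call was lost with no count filter and without mouse 1, 2, 4, 5 or 7. *Angpt1*, *Fgf1*, *Angptl7* and *Igf2* stayed called without each mouse in turn. The median log2 fold change of the 39 ligands was 0.04.

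Of 24 receptors of the factors, all of which were tested, 4 were called higher and none lower, with a median log2 fold change of 0.00. The neuropilins *Nrp1* (0.83 ± 0.16, adjusted p = 0.00969) and *Nrp2* (1.09 ± 0.23, adjusted p = 0.0181), coreceptors of VEGF and of semaphorins, rose, whereas the VEGF receptors *Kdr* (-0.50, adjusted p = 0.853) and *Flt1* (-0.08, adjusted p = 0.970) did not pass. *Nrp2* lost its call without mouse 4 or 7. *Cntfr*, which binds CNTF, rose from 7.31 ± 3.27 to 16.5 ± 8.22 CPM (SD, n = 9 each, log2 fold change, 1.10 ± 0.27, adjusted p = 0.0409), and *Ntrk2*, the BDNF receptor, from 255.5 ± 92.7 to 380 ± 98.8 CPM (0.63 ± 0.15, adjusted p = 0.0330). Both were higher in 9 of 9 mice, which held for 3.12% of all genes. Their calls were lost without the replicate block (adjusted p = 0.0685 for *Cntfr* and 0.355 for *Ntrk2*), and without mouse 2, 4, 5, 7 or 8 for *Cntfr* and mouse 3, 4, 5, 7, 8 or 9 for *Ntrk2*, which also lost its call with upper-quartile scaling and with no count filter. The receptors of BMP4 did not pass, with *Bmpr1a* at 78.4 ± 30.3 CPM in control and 80.8 ± 28.6 CPM in treated eyes (SD, n = 9 each, log2 fold change, 0.03).

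Of 24 secreted binding proteins and inhibitors, 21 were tested, with 2 higher, 1 lower and a median log2 fold change of 0.20. By DESeq2 2 were higher and 4 lower, and by limma voom 3 and 4. *Igfbp3*, a carrier of insulin-like growth factors, rose from 12.02 ± 6.50 to 118 ± 71.0 CPM (SD, n = 9 each, log2 fold change, 3.21 ± 0.34, adjusted p = 0.000167). *Igfbp2*, of the same family, rose from 343 ± 81.3 to 654 ± 185 CPM (0.92 ± 0.17, adjusted p = 0.00843). Both were apart between the groups in CPM, and both stayed called without each mouse in turn. *Timp3*, a matrix protein of Bruch's membrane that blocks metalloproteinases and VEGF binding, was lower in 9 of 9 mice (-0.86 ± 0.21, adjusted p = 0.0387), but its call was lost without the replicate block (adjusted p = 0.194), with no count filter and without mouse 1, 2, 3, 4, 5, 7 or 9.

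Among genes that answer quickly to these ligands, 1 was called. Of 9 FGF targets, *Dusp6*, a phosphatase of the ERK pathway, was called lower (-0.87 ± 0.21, adjusted p = 0.0353), a call that was lost without the replicate block (adjusted p = 0.0716), with no count filter and without mouse 1, 2, 3, 4, 6, 7 or 9. None of 8 BMP targets was called by edgeR, DESeq2 or voom, and the smallest p was that of the decoy receptor *Bambi* (0.73 ± 0.29, adjusted p = 0.277), the only one with an unadjusted p under 0.05. None of 7 LIF and CNTF targets was called by edgeR or DESeq2 and 1, *Socs3*, was by voom, with an unadjusted p under 0.05 for 1, *Cebpd* (0.64 ± 0.22, adjusted p = 0.183).

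*Vegfa* and *Angptl4* are both known targets of the hypoxia-inducible factors. Of 17 hypoxia-inducible factors and their targets, 2 were called higher and none lower, with a median log2 fold change of -0.10. DESeq2 and limma voom each called 3 higher, adding *P4ha1*, which was higher in 9 of 9 mice (log2 fold change, 0.43; edgeR adjusted p = 0.109). *Adm*, the vasodilator peptide adrenomedullin, rose from 1.95 ± 0.893 to 62.8 ± 44.9 CPM (SD, n = 9 each, log2 fold change, 4.78 ± 0.39, adjusted p = 2.39e-05) and *Bnip3*, a mitochondrial protein of cell death and mitophagy, from 44.8 ± 13.7 to 99.3 ± 33.0 CPM (1.15 ± 0.20, adjusted p = 0.00557). *Adm* and *Bnip3* stayed called without each mouse in turn. Of the relatives, partners and targets called here, only *Bnip3* stayed called with the rod and cone markers in the model, and only *Adm* with the macrophage markers. Those fits called only 34 and 53 genes in all, and the classic Nrf2 targets *Hmox1* and *Nqo1* also lost their calls in both. The estimates of the called relatives, partners and targets kept their direction under all 19 alternatives.

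**Figure D5:**
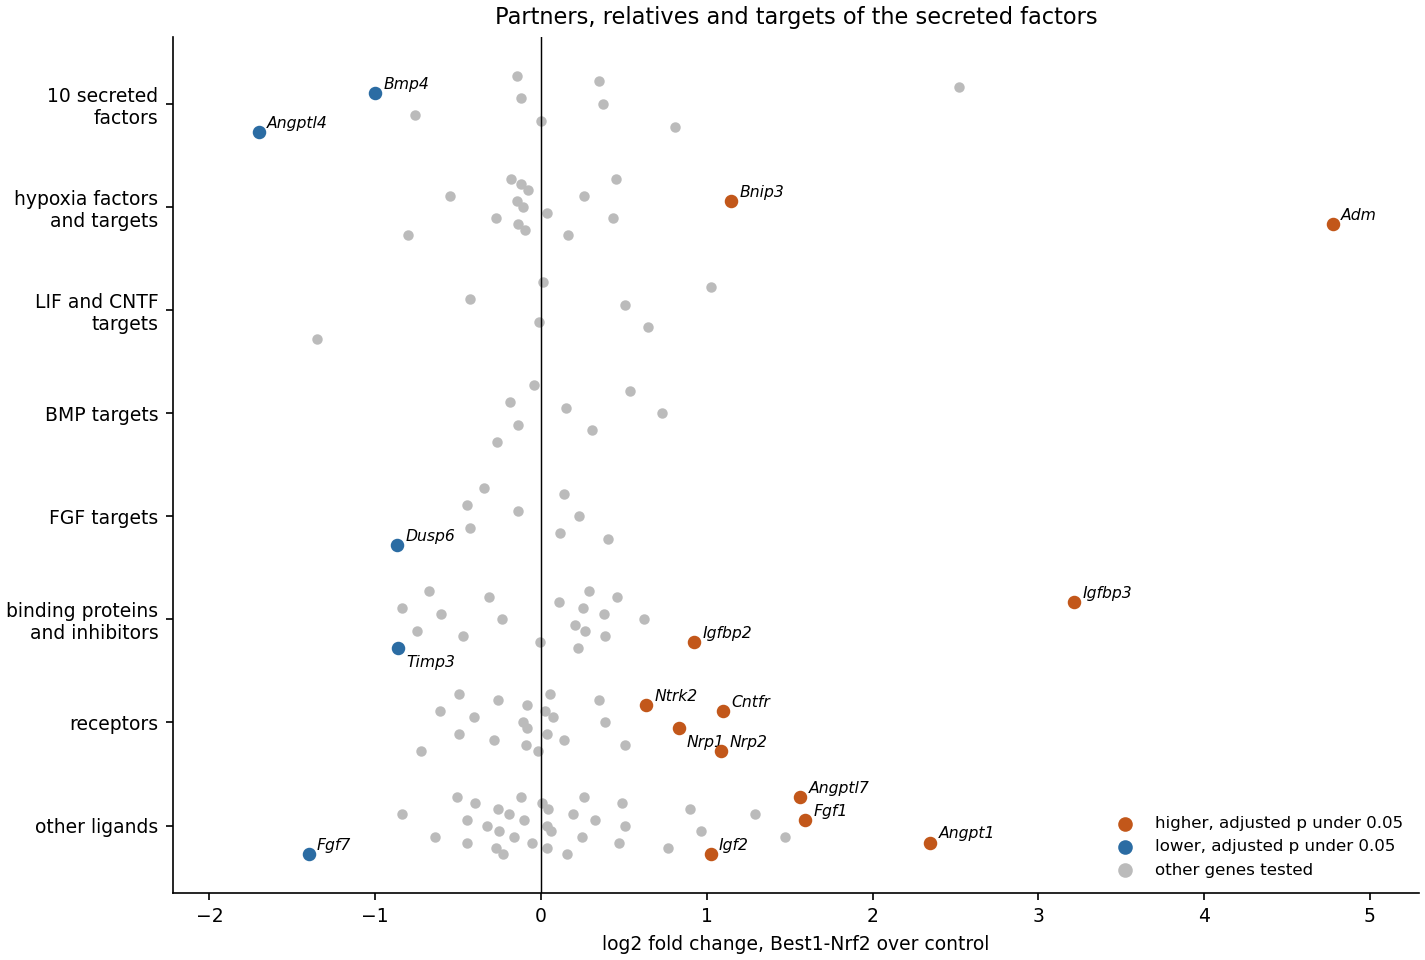
Log2 fold change (x axis, Best1-Nrf2 over control) of the genes tested in the 10 secreted factors and 7 lists of their relatives, partners and targets (rows; height within a row has no meaning). Genes with an adjusted p under 0.05 are named, orange where higher and blue where lower; *Adm* (4.78) and *Igfbp3* (3.21) lie furthest to the right, and *Angptl4* (-1.70) furthest to the left among those named.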

How the data were processed

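RPE RNA of 18 eyes was profiled. Per the labels and the study's methods, poly(A) RNA of the eyecup was amplified by a kit for low input, with no molecular identifiers described, and the submitters' processing notes name FastQC and Salmon 0.8.1. The values deposited by the authors are expected counts for Ensembl genes, as whole numbers and unscaled. The unit was inferred from the values, as the table does not state its counter, and whether strand was used is not given in the sources used here.

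From these counts, low genes were removed with filterByExpr. After TMM scaling, groups were compared in edgeR 4.0.16 (R 4.3.3) by its quasi-likelihood F test with mouse as a block, with Benjamini-Hochberg adjustment over 18958 genes and a threshold of 0.05. Log2 CPM used a prior count of 2. Standard errors came from the F statistic. Both eyes of a mouse share an individual number in the labels, which gave the pairing, although the deviations of the eyes from their group means correlated by only -0.00095 (median; range, -0.37 to 0.64). The chi-square per degree of freedom between libraries of a group was at least 50.8, so none was a duplicate of another in its group. Libraries of different groups were not compared in this way.

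Coordinates are from GENCODE release M21 (GRCm38). The alternatives were no block, other scalings, filters, prior count and threshold, DESeq2 1.42.0, limma 3.58.1 voom, covariates for photoreceptor or macrophage markers, and leaving out each mouse. The scripts were tested on simulated data. All 10 factors are named. From each of the 20 other lists, up to 3 called genes with the largest change could be named, or, where none was called, the gene with the smallest p. Further names among RPE, rod, macrophage and Müller glia markers, ligands and targets were chosen after their values were seen. Receptors could be named too, as could the 3 genes most correlated with a factor. One of these lists and some single genes are not reported here. The factors and lists were chosen with earlier results of these data known.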

Additional observations from a re-analysis of the deposited data

Results flagged for a closer look

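In 24 groups of 9 libraries (the 10 factors, *Nfe2l2* and the *Vegfa* to *Serpinf1* difference), a gap test for a single outlying library marked 3, where chance alone would mark about 1.2. *Lif* was lowest in the Best1-Nrf2 eye of mouse 3, at -3.44 log2 CPM from 1 count, far below the next library at -0.07. *Cntf* was lowest in the control eye of mouse 8, at -0.14 log2 CPM from 15 counts, with the next at 3.90. *Nfe2l2* was highest among controls in the eye of mouse 8, at 7.06 log2 CPM (134 CPM), with the next at 6.60. The control library of mouse 8 was the smallest. The causes were not tested.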

How the results depend on the processing

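The count of factors called higher was 0, and became 1 (*Lif*) without the replicate block, with DESeq2 and with limma voom. It was 0 to 1 when a mouse was left out. The count called lower was 2, and became 1 without the replicate block (*Angptl4*), 3 with limma voom (with *Bdnf*) and 0 with either marker covariate. It was 1 to 3 when a mouse was left out, being 1 without mouse 1 or 3 and 3 without mouse 6, where *Bdnf* joined. The sign turned for 7 uncalled factors. For *Fgf2* it was negative without the block (-0.021), with RLE (-0.00025), upper-quartile scaling (-0.038), voom (-0.18) or at least 10 counts in every library (-0.015), and without mouse 2, 4 or 6 (-0.23 to 0.20 when each mouse was left out). With the photoreceptor covariate it turned for *Lif* (-0.0037), *Bdnf* (0.59), *Igf1* (-0.089) and *Pdgfa* (0.13), with the macrophage covariate for *Cntf* (-0.27) and *Igf1* (-0.36), and without mouse 1 for *Vegfa* (-0.31 to 0.0098 when each mouse was left out). *Angptl4* and *Bmp4* were negative under all 19 alternatives. The median of the factors was -0.27 to 0.06. Over all genes, 807 were called, 738 without the block, 34 and 53 with the covariates, 1478 with DESeq2 and 1426 with voom. The causes were not tested. *Lif* rested on 1 to 504 counts per library.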

Other observations

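Among the other ligands, *Angptl2*, of the angiopoietin-like family, just missed the threshold (75.8 ± 43.0 CPM in control eyes, 205.5 ± 114 CPM in treated eyes, SD, n = 9 each). It was higher in 8 of 9 mice, with a log2 fold change of 1.47 ± 0.38 SE (edgeR, adjusted p = 0.0504). DESeq2 and limma voom called it. It was chosen after its values were seen.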
